A study of Mus musculus with 10 samples.

Results

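Untreated splenic type 2 conventional dendritic cells (cDC2) that carried a Notch2 deletion were compared with untreated wild-type cDC2 on 4 of the 10 arrays of the series. The 4 arrays were chosen by title, as 2 WT Untreated and 2 Notch2-11cKO Untreated arrays. The genotype given for Notch2-11cKO is CD11c-Cre+ Notch2f/f, so that Cre made in CD11c-positive cells acts on floxed Notch2. The other 6 arrays were 3 of each genotype from mice that had received 200000000 sheep red blood cells (SRBC) intraperitoneally 24 hours earlier, and they served here to estimate the spread and as a second set of the same genotype contrast. All cells came from spleens digested with Collagenase B and DNase, were enriched for CD11c+ cells and then sorted. The labels do not give age, sex, the sort gate, whether WT mice carried Cre, or whether replicates came from separate mice, so p-values measure the spread between these samples, which may be technical. CD11c-Cre is not confined to cDC2, so other CD11c-positive cells of these mice may carry the deletion too. The labels do not give the extent of deletion in any cell type.

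Notch2 is a transmembrane receptor that is cut on contact with a ligand on a neighbouring cell. Its freed intracellular part joins RBPJ on DNA and turns on target genes such as Hes1 and Dtx1. In the spleen, stromal cells near the marginal zone present the ligand Delta-like 1, and the ESAM-high subset of cDC2 is known to depend on this signal. The remaining ESAM-low cDC2 are known to share transcripts with monocytes.

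The arrays measured 19938 genes with 1 probe set each. Array medians ranged from 29.5 to 31.7 in intensity, and precision is limited by having 2 arrays per genotype. The 2 WT untreated arrays correlated at r = 0.991 over all genes and the 2 Notch2-11cKO untreated arrays at r = 0.989. After SRBC, WT array 1 and Notch2-11cKO array 3 stood apart from their groups, with r between 0.971 and 0.978. By limma's moderated test, 589 genes were higher and 430 lower in untreated Notch2-11cKO cells at a Benjamini-Hochberg adjusted p under 0.05, 2.95% and 2.16% of all genes (5.11% in either direction). Each differed 2-fold or more in 453 and 292 of them, and 8-fold or more in 56 and 14. The median difference over all genes was -0.02 on the log2 scale. The count of 1019 fell to 418 and 474 without WT untreated array 1 or 2 and to 447 and 561 without Notch2-11cKO untreated array 1 or 2, where the lone array left was assumed to vary like the other groups. It rose to 1996 without the 2 SRBC arrays that stood apart. Of the 1019 genes 337, 218 higher and 119 lower, passed with any 1 of the 4 untreated arrays left out; below, such genes are said to hold. Differences are log2 Notch2-11cKO minus WT ± the standard error of the fit (n = 2 and 2), and the levels are deposited linear intensities. Counts of list members below stand beside the shares of all genes, 2.95% higher and 2.16% lower.

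Transcripts of the Notch pathway were split. Of 19 measured Notch target genes 3 fell and 1 rose, and all 4 held. Hes1, a transcriptional repressor induced by Notch, read 204 and 141 in the WT arrays and 27.6 and 28.5 in the Notch2-11cKO arrays. Both knockout arrays lay below both WT arrays, and the groups did not overlap in one direction or the other for 48.8% of all genes (-2.60 ± 0.26, adjusted p = 0.000143). Dtx1, which encodes the ubiquitin ligase Deltex1, read 383 and 199 against 56.5 and 47.8 (-2.41 ± 0.33, adjusted p = 0.00122). Ccnd1, encoding the G1 cyclin D1, dropped from 1743 and 1821 to 348 and 371 (-2.31 ± 0.32). The inhibitor of E proteins Id3 went the other way, from 34.1 and 34.4 to 218 and 281 (2.85 ± 0.31). The list median was -0.0020, close to that of all genes.

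The receptor's own transcript did not pass the threshold. Notch2 read 277 and 282 in WT and 330 and 288 in Notch2-11cKO (0.14 ± 0.26, adjusted p = 0.915), but the position of its probes relative to the deleted stretch is not stated, so its level checks nothing. Notch1 read 49.3 and 41.1 against 64.4 and 56.9 (0.43 ± 0.21, adjusted p = 0.401). Of 31 genes of Notch ligands, receptors and processing 3 passed, all higher (9.68% against 2.95% of all genes): Rbpj (1.30 ± 0.23), the gamma-secretase subunit Psen2 (0.97 ± 0.20) and the sheddase Adam17 (0.86 ± 0.22). None of these held. Rbpj missed the threshold without WT untreated array 1 (adjusted p = 0.0742) or Notch2-11cKO untreated array 1 (0.071), and when all its probe sets were averaged (adjusted p = 0.139). Psen2 reached 0.165 without WT untreated array 2 and Adam17 0.364 without WT untreated array 1. Adam17 also missed it without WT SRBC array 2 (0.0722) or 3 (0.0705) or Notch2-11cKO SRBC array 1 (0.0604).

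Several transcripts known from conventional dendritic cells were bright in both genotypes, while other members of that list differed. Itgax, encoding CD11c, read 1145 and 1110 in WT and 1403 and 1454 in Notch2-11cKO, and Sirpa, a surface marker of cDC2, read 1344 and 1432 against 1534 and 1615. Neither passed the threshold (adjusted p = 0.653 and 0.823), nor did Zbtb46, a factor known from conventional dendritic cells (-0.42 ± 0.21, adjusted p = 0.423). Flt3 did not pass either (-0.70 ± 0.28, adjusted p = 0.251). Flt3 passed only in fits without the 2 outlying SRBC arrays (adjusted p = 0.0217) or with the untreated arrays alone (0.0192). The class II chain H2-Aa was bright on all 4 arrays, between 4376 and 4591. Xcr1 and Cd8a, which mark cDC1, read at most 25.9 and 39.7. They are 2 of 13 cDC1 markers, of which 4 rose and 1 fell, as given below. Of 17 conventional dendritic cell genes 3 passed. Kit, the stem cell factor receptor, fell from 952 and 859 to 148 and 239 (-2.27 ± 0.24) and held. Cd209a rose (1.73 ± 0.23) and held, and Bcl11a fell (-1.67 ± 0.39) but missed the threshold without any 1 of the untreated arrays (adjusted p between 0.132 and 0.202). Irf4, in the same list, was lower but did not pass, with values given below. In a bulk sample, fewer cells of a type and less RNA per cell cannot be told apart, and this bears on every difference below.

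Fn1, encoding the matrix protein fibronectin, had the largest rise. It read 19.2 and 24.8 in WT and 1396 and 1244 in Notch2-11cKO, a 60.4-fold difference (5.92 ± 0.21, adjusted p = 1.92e-07). Lpl, a lipase that frees fatty acids from lipoproteins, read 15.6 and 15.3 against 678 and 456 (5.17 ± 0.25). Capg, which caps actin filaments, read 15.0 and 17.6 against 457 and 505 (4.88 ± 0.33). In each of these the WT arrays lay near the dim end of the scale. Dcstamp, a membrane protein needed for fusion of osteoclasts, rose 20.8-fold, and Gda, the guanine deaminase, 23.7-fold, with Notch2-11cKO values of 402 and 739 that differed from each other.

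Among the falls, Dnase1l3 changed by as much as Fn1 in the other direction. This secreted DNase digests DNA in particles released by dying cells. It read 1264 and 1233 in WT and 15.3 and 28.0 in Notch2-11cKO (-5.92 ± 0.29, 60.4-fold lower, adjusted p = 1.52e-06). Adgrl3, an adhesion receptor coupled to G proteins, dropped from 462 and 385 to 26.3 and 22.7 (-4.11 ± 0.29). Slc12a2, a sodium, potassium and chloride cotransporter, went from 761 and 748 to 57.4 and 59.0 (-3.70 ± 0.21), and Abcb1a, a drug efflux pump, from 366 and 309 to 29.5 and 27.1 (-3.57 ± 0.36). Arap2, a GTPase-activating protein for Arf6, fell 12.7-fold, the ubiquitin-conjugating enzyme Ube2e2 10.5-fold and the sodium channel subunit Scn3a 10.5-fold. Ffar2, a receptor for short-chain fatty acids, fell 10.1-fold and Asb2, a substrate adaptor of ubiquitin ligases, 8.18-fold. The cell adhesion gene Dscam fell by 2.77 ± 0.23 and Plac8 by 2.88 ± 0.45. Of the 40 largest changes 38 held. Rab30, a Rab GTPase (-3.04 ± 0.53), and the protease inhibitor Spint1 (-2.76 ± 0.46) missed the threshold without WT untreated array 2 (adjusted p = 0.0609 and 0.0565) or Notch2-11cKO untreated array 1 (0.069 and 0.0588).

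**Figure D1:**
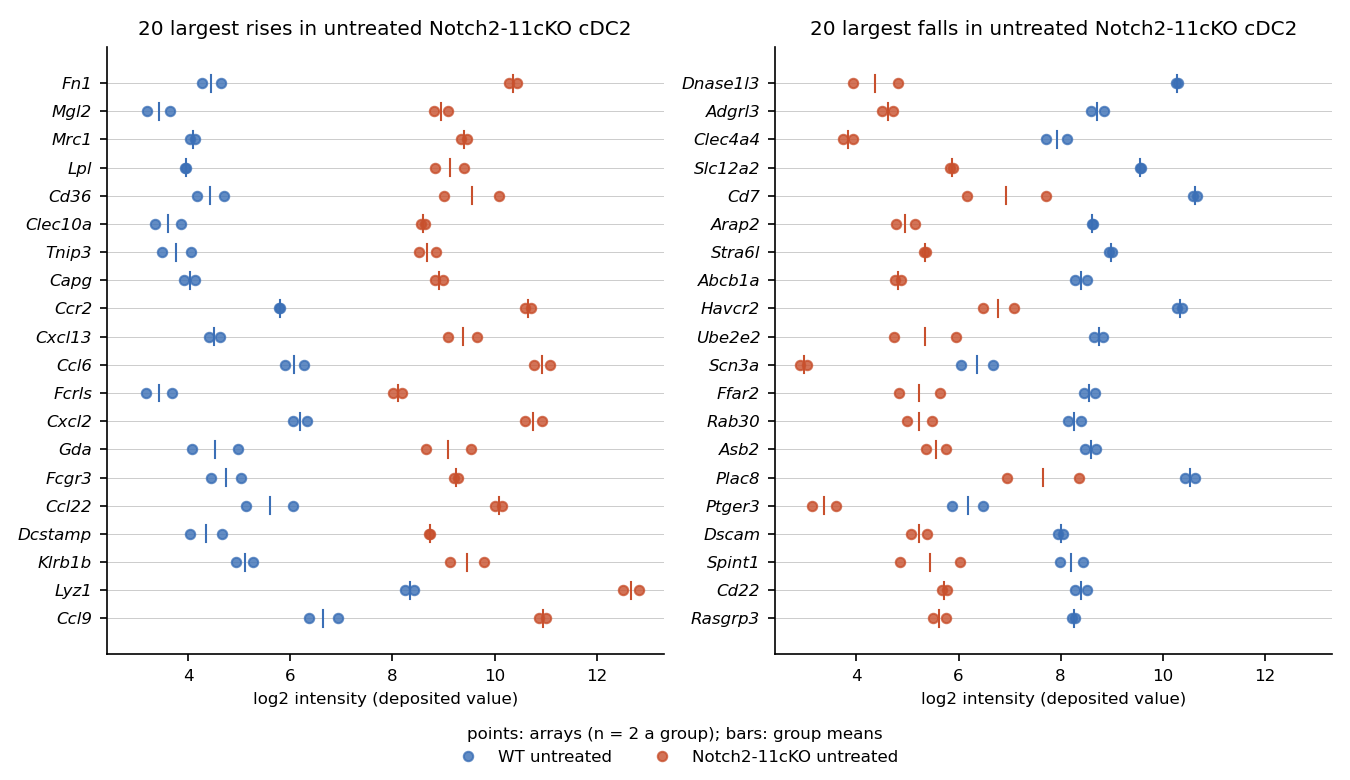
Log2 intensity of the 20 largest rises and the 20 largest falls in untreated cells, with 1 point per array (n = 2 per genotype) and a bar at each group mean. Both Notch2-11cKO arrays lie on one side of both WT arrays for all 40 genes, from Fn1 at 5.92 above WT to Dnase1l3 at 5.92 below it.

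Promoters of 475 of the 589 higher genes and 329 of the 430 lower genes were found in RefSeq's GRCm38.p6 table, as 300 bases from 250 before to 50 after the start, and were searched on both strands. The RBPJ core TGGGAA occurred in 27.6% of the higher and 28.6% of the lower genes, and in 27.1% of all 15614 genes with a promoter. A long form of the site of PU.1, the factor that drives myeloid genes, GAGGAAGT, occurred in 6.53% and 7.90% against 3.24% of all. Some of the 40 largest changes, such as Fn1, Dnase1l3 and Clec4a4, had no promoter entry. Among those with an entry, whose number was not counted, 3 had the motif: Havcr2 and Rasgrp3, which fell, and Tnip3, which rose. No share is therefore given for them. They are shown because they are the cases where this motif lies beside a large change, with the motif or its reverse complement in capitals. In Havcr2 (chr11:46454681-46454980, plus strand) the first base of the motif lies 8 bases before the start, in Rasgrp3 (chr17:75435655-75435954, plus strand) 50 bases before it, and in Tnip3 (chr6:65590148-65590447, plus strand) 166 bases before it. A match is a description of the letters, not of binding.
Havcr2: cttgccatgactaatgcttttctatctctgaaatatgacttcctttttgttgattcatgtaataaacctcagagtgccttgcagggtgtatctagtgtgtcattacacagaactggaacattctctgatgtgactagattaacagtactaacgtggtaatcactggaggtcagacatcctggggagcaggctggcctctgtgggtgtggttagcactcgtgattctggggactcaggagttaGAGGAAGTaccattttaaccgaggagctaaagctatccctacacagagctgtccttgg
Rasgrp3: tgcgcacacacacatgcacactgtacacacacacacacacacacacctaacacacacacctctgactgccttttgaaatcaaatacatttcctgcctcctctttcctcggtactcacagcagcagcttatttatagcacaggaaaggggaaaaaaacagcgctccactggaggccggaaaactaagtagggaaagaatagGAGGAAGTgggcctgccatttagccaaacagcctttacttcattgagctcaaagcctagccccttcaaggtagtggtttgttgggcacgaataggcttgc
Tnip3: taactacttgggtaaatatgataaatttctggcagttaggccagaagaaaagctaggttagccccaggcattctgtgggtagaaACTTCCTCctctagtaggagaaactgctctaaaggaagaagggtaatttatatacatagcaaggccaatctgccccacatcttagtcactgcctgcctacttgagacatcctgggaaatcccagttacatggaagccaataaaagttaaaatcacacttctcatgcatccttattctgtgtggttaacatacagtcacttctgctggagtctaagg

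Those 3 genes differ in role and direction. Havcr2 encodes TIM-3, an inhibitory receptor of lymphocytes and dendritic cells. It read 1248 and 1337 in WT and 89.0 and 135 in Notch2-11cKO (-3.56 ± 0.39, 11.8-fold lower). Rasgrp3, an activator of Ras and Rap, fell from 299 and 313 to 53.7 and 45.1 (-2.64 ± 0.42). Tnip3, an inhibitor of NF-kB signalling, rose from 11.2 and 16.6 to 460 and 364 (4.91 ± 0.33).

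Genes known from the ESAM-low and ESAM-high cDC2 subsets separated by direction, although both lists were drawn up with earlier results of these data known. Of 15 ESAM-low genes 13 were higher and none lower, 11 of which held, with a list median of 3.14. Ccr2, the receptor that brings monocytes out of the marrow, read 56.0 and 54.7 in WT and 1686 and 1548 in Notch2-11cKO (4.87 ± 0.35). Lyz1, a lysozyme, read 305 and 345 against 7217 and 5832 (4.32 ± 0.23), although its sequence is close to that of Lyz2 and the probe sets may share signal. Cx3cr1, the fractalkine receptor, read 83.2 and 77.6 against 871 and 560 (3.12 ± 0.47).

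Of 12 ESAM-high genes 8 were lower and none higher, 5 of which held, with a list median of -1.44. Cd7, a surface protein of lymphocytes, read 1537 and 1634 in WT and 71.5 and 210 in Notch2-11cKO (-3.69 ± 0.54), and the knockout arrays differed widely from each other. Clec4a4, Dnase1l3, Adgrl3 and Dtx1 also held. Esam, the adhesion molecule that gives the subsets their name, read 62.2 and 57.2 against 15.9 and 17.5 (-1.84 ± 0.33, adjusted p = 0.00664). Cd4 fell from 309 and 292 to 120 and 181 (-1.03 ± 0.22), and Tbx21, the T-box factor T-bet, by 1.04 ± 0.22. These 3 did not hold: without Notch2-11cKO untreated array 1 the adjusted p was 0.067 for Esam, 0.218 for Cd4 and 0.159 for Tbx21, and without WT untreated array 1 it was 0.0689, 0.152 and 0.0844. Without WT untreated array 2 Cd4 and Tbx21 reached 0.11 and 0.141, and without Notch2-11cKO untreated array 2 Tbx21 reached 0.0629.

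**Figure D2:**
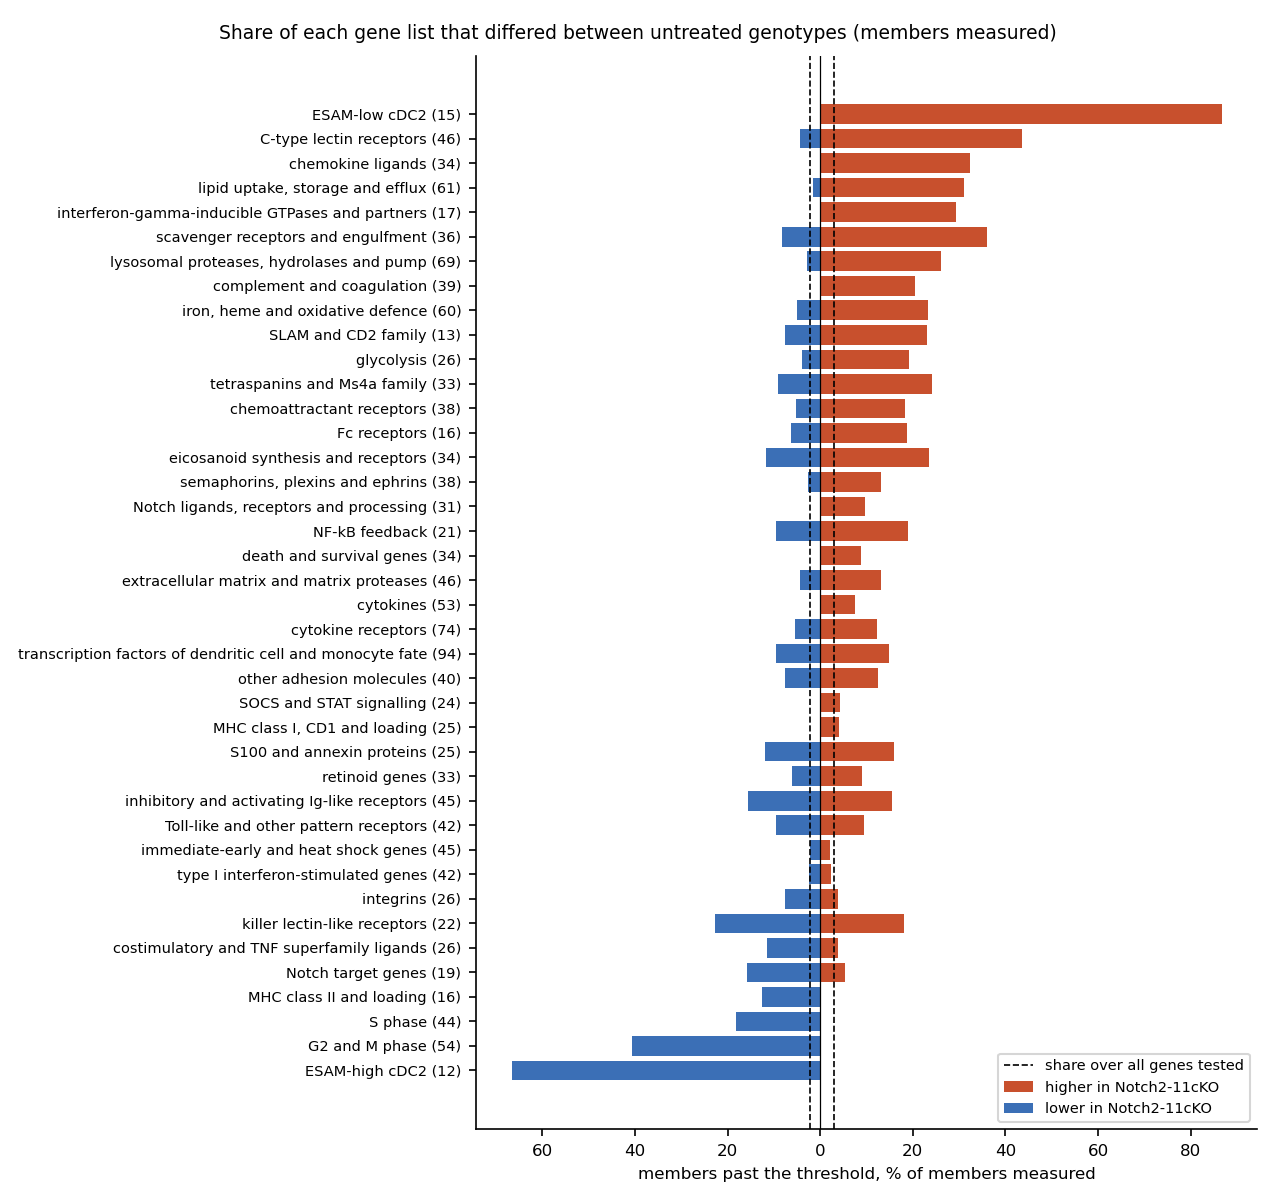
Share of the measured members of each of 40 gene lists that passed the threshold as higher (right) or lower (left) in untreated Notch2-11cKO cells, with the number measured in parentheses. Dashed lines mark the shares over all genes, 2.95% and 2.16%; ESAM-low cDC2 genes reach 86.7% higher, and G2 and M phase genes 40.7% lower.

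C-type lectins bind sugars on microbes and glycoproteins and deliver them for uptake. Of 46 lectin and galectin genes 20 rose and 2 fell, 43.5% higher against 2.95% of all genes, and the list median was 0.74. A count of 12 of the rises and 1 of the falls held. Mrc1, the mannose receptor, read 17.5 and 16.5 in WT and 707 and 652 in Notch2-11cKO (5.32 ± 0.53). Mgl2 and Clec10a, paired galactose-type lectins, rose by 5.52 ± 0.33 and 5.0 ± 0.27, from between 9.17 and 14.4 to between 379 and 542, but they are near-identical neighbours whose probes may share signal. Clec12a, an inhibitory lectin that senses uric acid crystals, read 39.5 and 75.8 against 936 and 729 (3.92 ± 0.32).

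Neighbouring genes of one lectin cluster moved in opposite directions. Clec4a4, which encodes DCIR2, a receptor on ESAM-high cDC2, read 210 and 280 in WT and 15.3 and 13.3 in Notch2-11cKO (-4.09 ± 0.35, 17.0-fold lower). Clec4a3 (2.79 ± 0.31) and Clec4b1 (3.32 ± 0.36), members of the same dendritic cell immunoreceptor family, rose and held. Clec4a3 was picked out after its values were seen. Cd72, an inhibitory coreceptor known from B cells, fell (-1.68 ± 0.40) but missed the threshold without WT untreated array 1 (adjusted p = 0.108) or 2 (0.259) or without Notch2-11cKO untreated array 1 (0.304), and also without WT SRBC array 3 (0.0546) or Notch2-11cKO SRBC array 1 (0.0554) or 2 (0.0510).

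**Figure D3:**
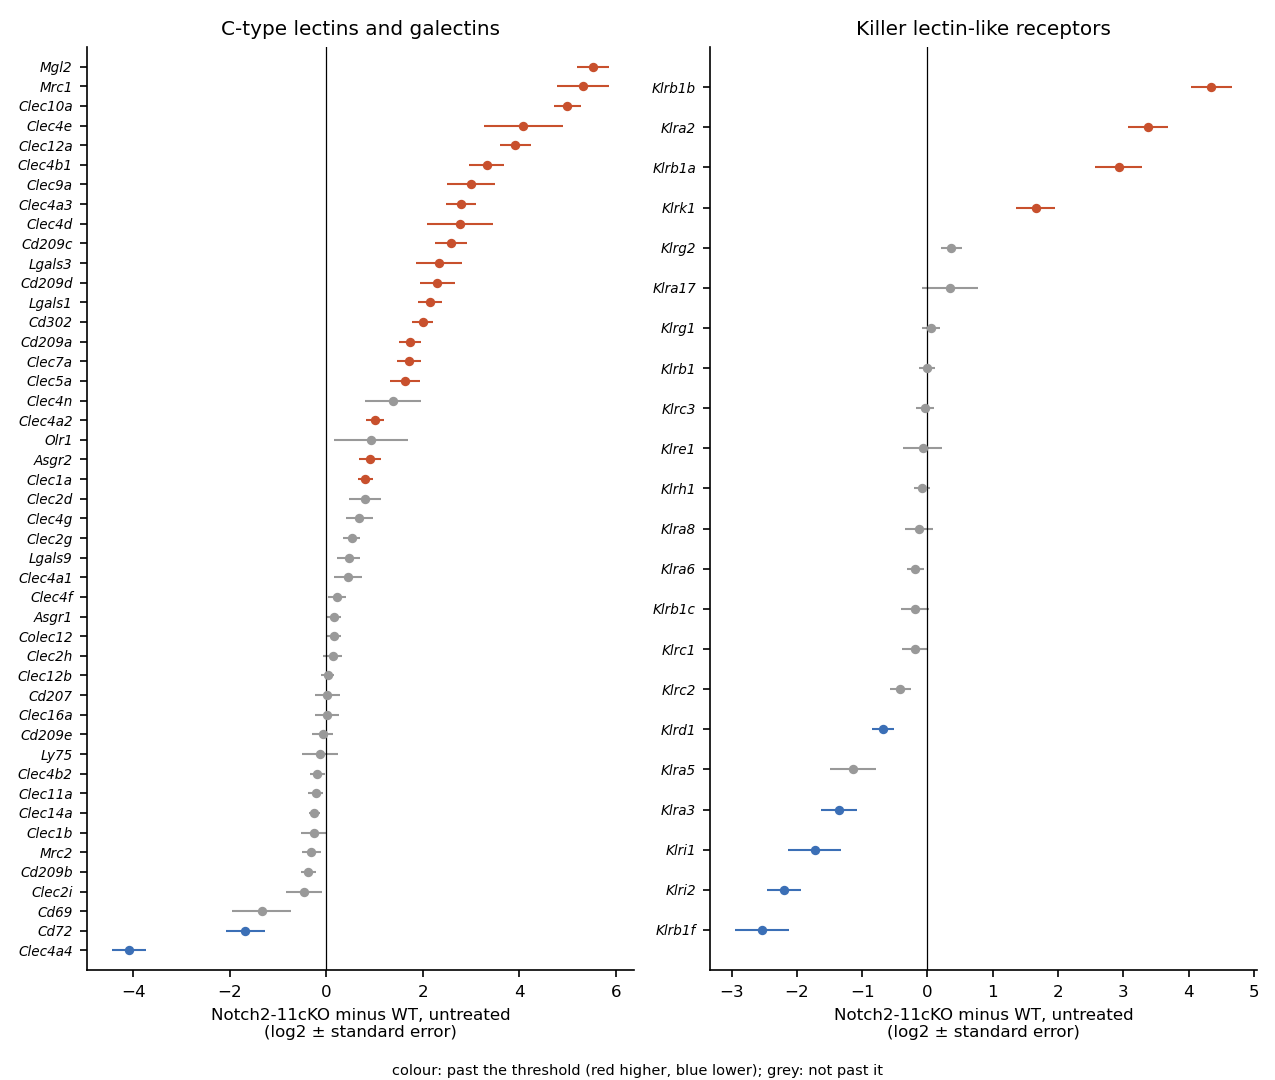
Log2 difference between untreated genotypes, with its standard error, for 46 lectin and galectin genes and 22 killer lectin-like receptor genes. Mgl2 stands highest at 5.52 and Clec4a4 lowest at -4.09 on the left, and Klrb1b at 4.35 and Klrb1f at -2.53 mark the ends on the right.

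Killer lectin-like receptors, known from natural killer cells, were divided as well. Of 22 measured genes 4 rose, 3 of which held, and 5 fell, 1 of which held. Klrb1b read 30.7 and 38.5 in WT and 557 and 882 in Notch2-11cKO (4.35 ± 0.32), Klra2 rose by 3.38 ± 0.30 and Klrb1a by 2.93 ± 0.36. Klri2 fell from 181 and 177 to 33.5 and 45.1 (-2.20 ± 0.26). Klrb1f, a relative of Klrb1b, fell by 2.53 ± 0.41, but it missed the threshold without WT untreated array 1 (adjusted p = 0.0598) or Notch2-11cKO untreated array 1 (0.0516). Genes of this family are close copies, so signal may be shared among them. Of 13 natural killer cell markers 1 rose and 1 fell (7.69% each), and their summed intensity was 1457 and 1607 in WT against 1101 and 1117 in Notch2-11cKO. Most of that sum was Klrd1, which encodes CD94, at 1346 and 1126 against 704 and 839, the 1 fall, which did not hold (adjusted p up to 0.391 with 1 untreated array left out). Ncr1 read 8.51 and 9.22 against 10.1 and 10.4, and Gzma at most 11.4.

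Receptors for antibody and the inhibitory receptors of the immunoglobulin superfamily changed in both directions. Fcgr3, an activating IgG receptor, read 21.7 and 32.7 in WT and 625 and 593 in Notch2-11cKO (4.51 ± 0.29), and Fcgr2b, the inhibitory one, rose by 3.10 ± 0.31. Fcrls, an Fc receptor-like scavenger receptor, read 12.9 and 8.99 against 293 and 258 (4.67 ± 0.29). Of 16 Fc receptor genes these 3 rose. Fcrl1 alone fell (-1.45 ± 0.30), and it missed the threshold without any 1 of the untreated arrays (adjusted p between 0.0789 and 0.125).

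Of 45 Ig-like receptors 7 rose, 3 of which held, and 7 fell, 5 of which held. The rises that held were Pilrb1 (2.47 ± 0.39), Pilrb2 (2.01 ± 0.21), which are close copies, and Cd300lg (1.36 ± 0.17). Of the falls that held, Cd22, a sialic acid-binding lectin of B cells, dropped from 364 and 312 to 54.5 and 51.0 (-2.68 ± 0.21). Siglecg, its relative, fell by 1.95 ± 0.31, the collagen receptor Lair1 by 2.45 ± 0.25 and Cd300lf, which binds phosphatidylserine, by 2.59 ± 0.39, beside Havcr2 above. Of 13 SLAM and CD2 family genes 3 rose and 1 fell. Cd84 (4.03 ± 0.29) and Slamf9 (2.98 ± 0.30) rose and held.

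Among chemokines, the proteins that guide leukocytes, the genes that passed differed in 1 direction. Of 34 ligand genes 11 were higher and none lower, 32.4% against 2.95% of all genes, and 10 of the 11 held. Both Notch2-11cKO arrays lay above both WT arrays for 21 of the 34 and below for 6 (48.8% of all genes either way). Xcl1, the lowest, differed by -1.61 and did not pass (adjusted p = 0.0568). Cxcl13, which draws B cells and follicular helper T cells into follicles, read 24.7 and 21.1 in WT and 809 and 544 in Notch2-11cKO (4.86 ± 0.35, adjusted p = 1.59e-05). Ccl22, a ligand of CCR4 on T cells, read 35.2 and 66.4 against 1036 and 1132 (4.49 ± 0.34). Ccl6 read 59.2 and 76.5 against 2160 and 1737 (4.85 ± 0.21), and Ccl9, also a chemokine of myeloid cells, 82.3 and 122 against 2066 and 1876 (4.30 ± 0.23). The ligand of neutrophils Cxcl2 rose by 4.57 ± 0.52 and the interferon-induced Cxcl9 by 2.74 ± 0.26.

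Receptors for such signals were split. Of 38 chemoattractant receptor genes 7 were higher and 2 lower (18.4% and 5.26%), and 4 and 2 of these held. Besides Ccr2 and Cx3cr1, Ccr1 (3.23 ± 0.28) and the leukotriene B4 receptor Ltb4r1 (2.79 ± 0.42) rose. Gpr183, the oxysterol receptor that places cDC2 at the bridging channels of the spleen, read 1437 and 1317 in WT and 426 and 519 in Notch2-11cKO (-1.55 ± 0.19). Ccr6, the receptor of Ccl20, fell from 54.4 and 61.4 to 21.6 and 21.5 (-1.43 ± 0.19). Ccr7, which takes dendritic cells to T cell zones, did not pass, at 711 and 898 against 869 and 869 (0.12 ± 0.26, adjusted p = 0.932), nor did S1pr1 (0.21 ± 0.18, adjusted p = 0.715).

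Of 53 cytokine genes 4 rose and none fell (7.55% against 2.95% of all genes), and none of the 4 held. Il6 read 10.3 and 8.65 in WT and 57.6 and 86.3 in Notch2-11cKO (2.90 ± 0.50), and missed the threshold without WT untreated array 2 (adjusted p = 0.0609) or Notch2-11cKO untreated array 2 (0.0608). Vegfa rose by 2.03 ± 0.37 and missed it without WT untreated array 1 (0.109) or Notch2-11cKO untreated array 1 (0.0854). Of 74 cytokine receptors 9 rose, 3 of which held, and 4 fell, 2 of which held. Csf1r, the receptor that sustains macrophages, read 172 and 176 against 836 and 804 (2.24 ± 0.22), and Il7r, the receptor of lymphoid progenitors, 87.3 and 80.0 against 352 and 388 (2.14 ± 0.20). Il12rb2, a chain of the IL-12 receptor, fell from 355 and 386 to 67.7 and 68.0 (-2.45 ± 0.36).

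Genes for the uptake of dying cells and lipoproteins were higher in part. Of 36 scavenger receptor and engulfment genes 13 rose, 9 of which held, and 3 fell, 2 of which held, while the list median was 0.07. Cd36, a receptor for oxidised lipoproteins, read 18.1 and 25.8 in WT and 1091 and 517 in Notch2-11cKO (5.12 ± 0.37). Axl, a kinase that recognises phosphatidylserine through its ligand Gas6, read 36.8 and 35.3 against 456 and 430 (3.62 ± 0.31). Msr1, the class A scavenger receptor, rose by 3.07 ± 0.33 and Dock1, which activates Rac in engulfment, by 2.55 ± 0.18. Its partner Elmo1 went the other way, from 1175 and 1169 to 338 and 398 (-1.68 ± 0.22), and Dock5 fell by 1.68 ± 0.21.

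Of 39 complement and coagulation genes 8 rose and none fell, and 5 held. The 3 chains of C1q, which tags debris for removal, rose together: C1qa from 35.3 and 38.2 to 217 and 188, C1qb by 2.78 ± 0.37 and C1qc by 2.98 ± 0.34. Coagulation factor X, F10, read 35.0 and 45.2 against 454 and 616 (3.73 ± 0.41), and F13a1, the transglutaminase of clots, rose by 2.33 ± 0.35. Of 46 matrix and matrix protease genes 6 rose and 2 fell; Fn1, the protease inhibitor Timp2 (3.32 ± 0.24) and Adam23, a protease-like adhesion protein that fell (-2.52 ± 0.24), were the ones that held.

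Of 69 lysosomal protease, hydrolase and pump genes 18 rose and 2 fell, 26.1% higher against 2.95% of all genes, with a list median of 0.49; 11 of the rises and 1 fall, Dnase1l3, held. Ctsd, the aspartic protease cathepsin D, read 235 and 337 in WT and 1628 and 1600 in Notch2-11cKO (2.52 ± 0.26). Cd63, a tetraspanin of late endosomes, read 361 and 378 against 2267 and 1957 (2.51 ± 0.16), and Lyz2 936 and 1208 against 7296 and 6346 (2.68 ± 0.20). Mitf, a transcription factor of lysosomal genes, rose by 2.57 ± 0.27. The motif CACGTG, an E-box read by factors of the Mitf family, lay in 28.3% of the 60 promoters of this list against 9.50% of all promoters, and in 2 of the 17 promoters (11.8%) of members that passed.

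Of 61 genes of lipid uptake, storage and efflux 19 were higher and 1 lower, 31.1% higher, with a median of 0.32; 8 of the rises held. Plin2, which coats lipid droplets, read 60.6 and 71.0 in WT and 549 and 502 in Notch2-11cKO (3.00 ± 0.36). Pltp, a phospholipid transfer protein, rose from 162 and 183 to 858 and 1273 (2.60 ± 0.27), and Pparg, a nuclear receptor for fatty acids, from 26.4 and 36.6 to 202 and 222 (2.77 ± 0.39). Srebf2, the activator of cholesterol synthesis, was the one that fell (-0.76 ± 0.20, adjusted p = 0.0497), and it missed the threshold without any 1 of the 4 untreated arrays (adjusted p between 0.181 and 0.286), and without WT SRBC array 2 (0.0738) or 3 (0.0782) or Notch2-11cKO SRBC array 1 (0.0507) or 2 (0.0544).

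Eicosanoid genes, whose products are lipid mediators of inflammation, moved both ways. Of 34 measured 8 rose, 5 of which held, and 4 fell, 2 of which held. Tbxas1, thromboxane synthase, read 19.1 and 31.6 in WT and 353 and 297 in Notch2-11cKO (3.72 ± 0.27). Ephx1 rose by 3.49 ± 0.31, the lipase Pla2g7, which breaks down platelet-activating factor, by 2.34 ± 0.28 and Pla2g2d by 2.27 ± 0.21. Ptger3, a prostaglandin E2 receptor, fell from 58.4 and 89.8 to 8.79 and 12.1 (-2.81 ± 0.31), and Ffar2, in the same list, fell as above.

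Of 33 retinoid genes 3 rose and 2 fell, and 1 of each held. Aldh1a2, the dehydrogenase that makes retinoic acid in dendritic cells, read 28.0 and 26.1 in WT and 235 and 294 in Notch2-11cKO (3.28 ± 0.32). Stra6l, a membrane receptor for retinol carried by its binding protein, read 515 and 493 against 39.8 and 41.2 (-3.64 ± 0.25). An enzyme and a transporter of one vitamin thus lay 9.71-fold higher and 12.4-fold lower.

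Of 60 genes of iron, heme and oxidative defence 14 rose, 5 of which held, and 3 fell, 1 of which held, 23.3% higher against 2.95% of all genes and 5.0% lower against 2.16%, with a median of 0.40. Hmox1, the oxygenase that opens heme, read 162 and 173 in WT and 1600 and 1453 in Notch2-11cKO (3.19 ± 0.43). The glutathione transferases Gstm1 (3.39 ± 0.48) and Mgst1 (2.46 ± 0.36) and the metallothionein Mt1 (1.91 ± 0.27) rose. Tfrc, the transferrin receptor that imports iron, fell from 256 and 235 to 58.8 and 58.2 (-2.07 ± 0.27). Bach1, a repressor of Hmox1, fell by 0.82 ± 0.20 but missed the threshold without any 1 of the untreated arrays (adjusted p between 0.157 and 0.216), WT SRBC array 2 (0.0553) or Notch2-11cKO SRBC array 1 (0.0504).

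Macrophage markers moved with the uptake, complement, lysosomal, lipid and iron groups. Of 19 measured 9 passed, all higher. The list median was 1.30, both Notch2-11cKO arrays lay above both WT arrays for 16 of the 19 and below for 2, and the summed intensity of the 19 lay between 2473 and 2572 in the WT arrays and between 6270 and 7248 in the Notch2-11cKO arrays. Several of the 9, such as C1qa, Axl and Hmox1, are members of those groups. Of the 10 that did not pass, Cd68 read 1344 and 1366 in WT and 2276 and 2145 in Notch2-11cKO, and Spic, a factor of red pulp macrophages, 75.6 and 129 against 360 and 165. Timd4 read 40.6 and 35.8 against 39.6 and 38.4, Marco 24.7 and 24.0 against 22.4 and 18.8, and Vsig4 at most 9.63. Adgre1, encoding F4/80, read 374 and 325 against 232 and 166 (-0.83) and did not pass. The monocyte list, 6 higher and 2 lower (Itgal and Treml4) of 14, summed to between 6005 and 6234 in WT and between 12021 and 13459 in Notch2-11cKO. Lyz2 and Ccr2, with values given above, made up most of the Notch2-11cKO sum. The part of macrophages or monocytes in the sorted cells in these results was not tested beyond these levels.

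Of 94 transcription factors of dendritic cell and monocyte fate 14 were higher, 8 of which held, and 9 lower, 2 of which held. Zeb2, a repressor needed for monocytes and plasmacytoid dendritic cells, read 207 and 236 in WT and 940 and 899 in Notch2-11cKO (2.06 ± 0.19), and Cebpa, a driver of myeloid fate, 83.2 and 96.1 against 469 and 362 (2.20 ± 0.25). Pparg, Mitf and Id3 rose as given above. Runx3 read 757 and 856 against 205 and 338 (-1.61 ± 0.25) and Zfp366, known as DC-SCRIPT, 286 and 257 against 85.8 and 105 (-1.52 ± 0.20). These were the 2 falls that held. Ahr, the aryl hydrocarbon receptor, fell by 1.72 ± 0.29 and missed the threshold without Notch2-11cKO untreated array 1 (adjusted p = 0.0655). Zeb1, a relative of Zeb2, fell by 1.17 ± 0.21, with an adjusted p between 0.0574 and 0.0724 when any 1 untreated array was left out.

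Irf4 and Klf4, factors of cDC2, did not pass. Irf4 read 411 and 420 in WT and 116 and 188 in Notch2-11cKO (-1.49 ± 0.39, adjusted p = 0.0528), but it passed without WT SRBC array 1 (adjusted p = 0.0366) or Notch2-11cKO SRBC array 2 (0.0420) or 3 (0.00933), and without both outlying SRBC arrays (0.0015). It also passed with the replicate number as a block (0.0294), quantile normalization (0.0311), array weights (0.00694), genes above the median level alone (0.0381) and the untreated arrays alone (0.00417). Klf4 read 236 and 261 against 358 and 346 (0.51 ± 0.34, adjusted p = 0.597). Irf8, a factor of cDC1, rose (1.93 ± 0.36) but missed the threshold without WT untreated array 1 (adjusted p = 0.11) or Notch2-11cKO untreated array 1 (0.0844) or 2 (0.0548). Of 13 cDC1 markers 4 rose and 1 fell. Naaa (2.33 ± 0.34) and Cadm1 (1.72 ± 0.22) rose and held, Wdfy4, needed for cross-presentation by cDC1, fell from 1311 and 1329 to 280 and 384 (-2.01 ± 0.22), and Clec9a, a receptor for dead cells, read 19.7 and 52.4 against 407 and 162 (3.00 ± 0.50). Clec9a differed widely within both genotypes and missed the threshold without WT untreated array 1 (0.0613) or Notch2-11cKO untreated array 1 (0.0566). The summed intensity of the cDC1 list overlapped, at between 2359 and 2668 in WT and between 2226 and 2531 in Notch2-11cKO.

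Genes known from lymphocytes changed in both directions. Bank1, a scaffold of the B cell receptor, read 105 and 136 in WT and 27.6 and 27.0 in Notch2-11cKO (-2.13 ± 0.24), while Blnk, a scaffold of the same receptor, read 13.4 and 17.3 against 163 and 227 (3.67 ± 0.26). Cd5, a coreceptor of T cells, read 108 and 176 against 48.6 and 50.9 (-1.47 ± 0.28), and missed the threshold without WT untreated array 2 (adjusted p = 0.128) or Notch2-11cKO untreated array 1 (0.0898) or 2 (0.067). Defining genes of B and T cells were dim in both genotypes: Cd79a read at most 7.87, Ebf1 at most 10.7, Cd3g at most 10.1 and Cd3e at most 44.0. Of the 14 B cell markers 1 rose and 3 fell, with sums of 749 to 804 against 544 to 668. Among the B cell falls was Cd22, with values given above. Of 13 T cell markers 1 rose and 1 fell (7.69% each), with sums of 435 to 481 against 610 to 650. The 1 T cell rise, Il7r, with values given above, made up most of the Notch2-11cKO sum. The T cell list median was -0.14. Plasmacytoid dendritic cell genes, 2 of 11 higher, summed to between 680 and 808 in WT and 1439 and 1570 in Notch2-11cKO, and none held. Sums were lower in Notch2-11cKO for neutrophil genes (1854 and 2350 against 527 and 950, with 1 of 12 higher and 1 lower), NK cell genes (given above) and erythroid genes (386 and 395 against 191 and 193, with 1 of 8 lower). The neutrophil list as a whole did not fall. Its median difference was -0.016, and its mean log2 levels were 4.62 and 4.62 in WT against 4.47 and 4.96 in Notch2-11cKO. Plasma cell genes, none of 9 called, summed to 752 and 803 against 470 and 584, and basophil and mast cell genes, 1 of 9 lower, to 245 and 253 against 229 and 233. Tfrc, the 1 lower erythroid gene, made up most of the WT erythroid sum, and Irf4 most of the WT plasma cell sum. Their values are given above. The part of these cells in the results was not tested.

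Of 16 class II and loading genes 2 fell and none rose, 12.5% lower against 2.16% of all genes, and both belong to H2-O, which restrains peptide loading by H2-M. H2-Ob read 1033 and 820 in WT and 239 and 222 in Notch2-11cKO (-2.00 ± 0.31) and held. H2-Oa fell by 1.34 ± 0.23 and missed the threshold without WT untreated array 1 (adjusted p = 0.0818) or Notch2-11cKO untreated array 1 (0.0693). Of 26 costimulatory and TNF family ligands Tnfsf9, the ligand of CD137, rose (1.86 ± 0.29) and 3 fell (11.5% lower), among them Tnfsf8, the CD30 ligand, from 55.2 and 83.6 to 14.1 and 16.9 (-2.14 ± 0.26). Cd86 fell by 1.16 ± 0.29 (adjusted p = 0.0451), and missed the threshold without any 1 of the untreated arrays (adjusted p between 0.085 and 0.326), WT SRBC array 2 (0.0674) or WT SRBC array 3 (0.0697).

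Of 42 type I interferon-stimulated genes 1 rose and 1 fell (2.38% higher), with a median of -0.12. Oas2, an antiviral synthetase, fell from 261 and 384 to 57.5 and 98.7 (-2.07 ± 0.30). Of 17 GTPases and partners induced by interferon-gamma 5 rose and none fell, and 4 held, among them Gbp3 (2.62 ± 0.30), Gbp7 (2.03 ± 0.21), which are similar in sequence, and Irf1 (1.5 ± 0.24). Of 21 NF-kB feedback genes 4 rose and 2 fell; Tnip3 and the inhibitor Nfkbia, which read 918 and 940 against 3284 and 2965 (1.75 ± 0.21), held. Of 42 Toll-like and other pattern receptors 4 rose and 4 fell (9.52% each). Tlr8 rose from 8.24 and 9.32 to 65.4 and 86.0 (3.10 ± 0.38), while Tlr7, a sensor of single-stranded RNA like Tlr8, fell from 225 and 269 to 75.1 and 83.5 (-1.64 ± 0.26). Nod1, a cytosolic sensor of peptidoglycan, fell by 2.62 ± 0.30.

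Many cell-cycle genes were lower. All 54 measured G2 and M phase genes had a negative difference, with a median of -0.83, where 9099 of all 19938 genes had a positive one. Both Notch2-11cKO arrays lay below both WT arrays for 49 of the 54, against 5338 of all genes. Bub1b and Plk4 differed by -0.02 and -0.01, near the median of all genes. Past the threshold, 22 of the 54 fell (40.7% against 2.16% of all genes). Of 44 S phase genes 8 fell and none rose, with a median of -0.50. After leaving out any 1 of the untreated arrays 2 G2 and M genes, Bub1 and Cenpf, and no S phase gene still passed. Bub1, a kinase of the spindle checkpoint, read 120 and 125 in WT and 34.8 and 43.2 in Notch2-11cKO (-1.66 ± 0.22), and Cenpf, a kinetochore protein, 79.0 and 69.4 against 21.4 and 33.8 (-1.46 ± 0.22). Top2a, which untangles chromosomes, read 349 and 375 against 87.9 and 183 (-1.51 ± 0.29), and the 2 knockout arrays differed from each other. Top2a missed the threshold without WT untreated array 1 (adjusted p = 0.0765) or 2 (0.0959) or Notch2-11cKO untreated array 1 (0.0831), and when its probe sets were averaged (0.0517). Mki67, the Ki-67 antigen, fell by 1.24 ± 0.24, with 0.0741, 0.095 and 0.125 in the same 3 cases, and the nucleotide reductase Rrm2 fell by 1.36 ± 0.24, with 0.0922 and 0.0913 without either array 1.

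**Figure D4:**
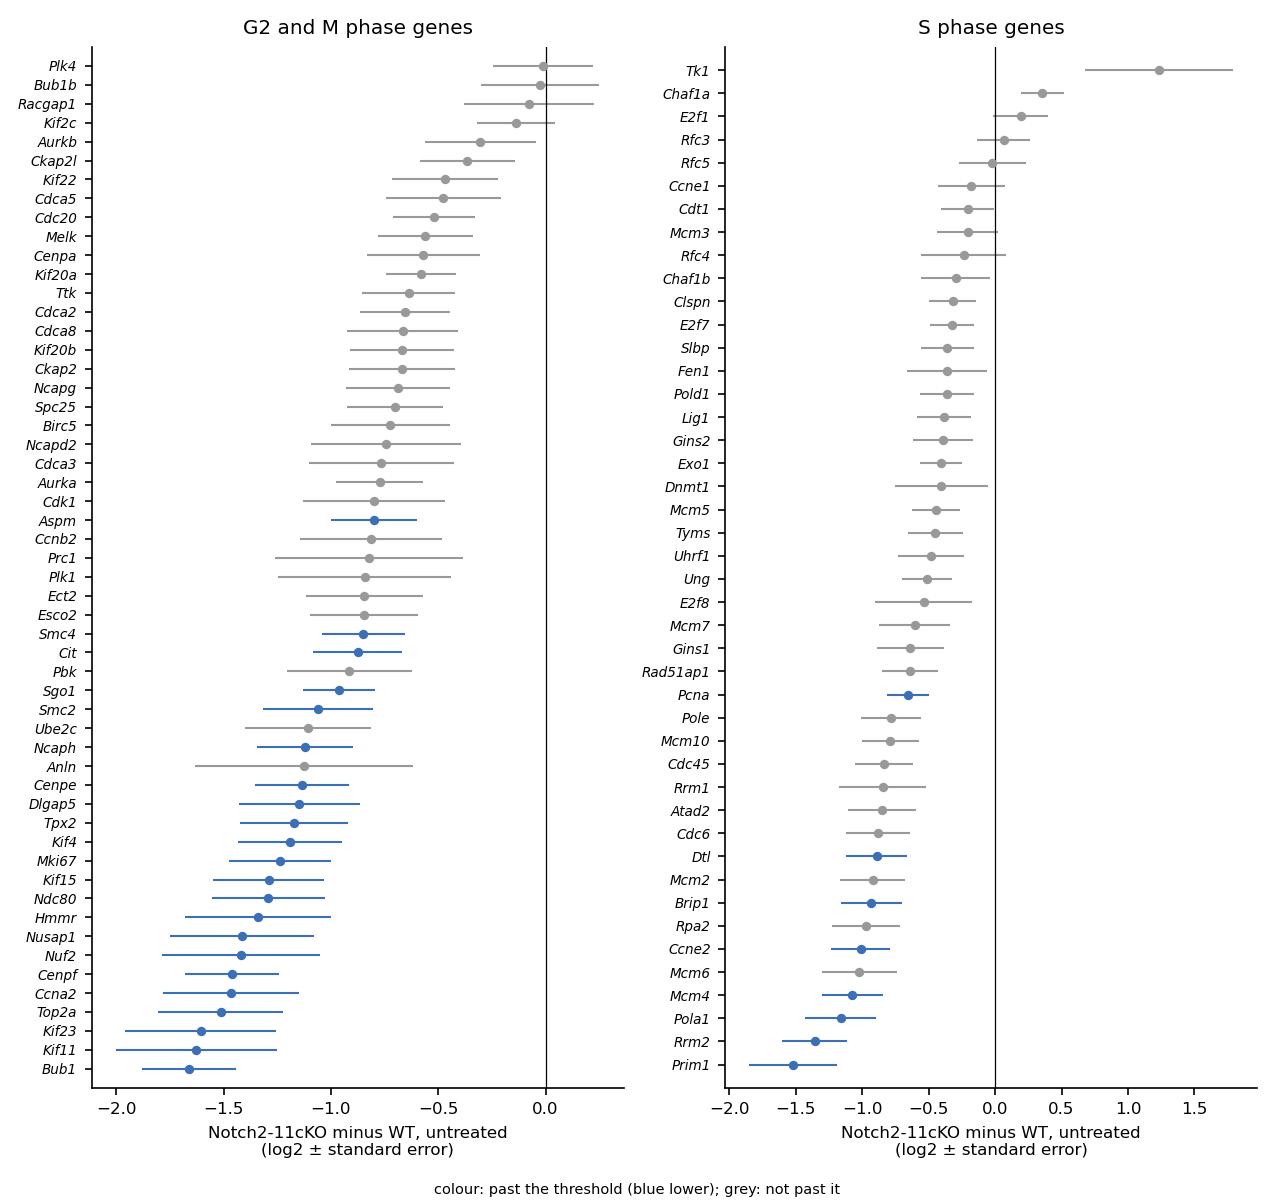
Log2 difference between untreated genotypes, with its standard error, for 54 G2 and M phase genes and 44 S phase genes. No G2 and M gene lies above 0, and Bub1 at -1.66 is the lowest.

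The promoters of G2 and M genes share 2 known elements, the CCAAT box (CCAAT) and the cell-cycle homology region (CHR, TTTGAA). Both motifs were found in 64.4% of the 45 promoters of the list against 6.89% of all promoters, and in 9 of the 18 promoters of members that fell. A few are shown to let the elements be seen, with both motifs in capitals on either strand; Hmmr and Aspm were picked out after their values were seen. They are Top2a (chr11:99024140-99024439, minus strand), Hmmr, encoding a hyaluronan and spindle protein (chr11:40733388-40733687, minus strand), and Aspm, a protein of spindle poles (chr1:139454523-139454822, plus strand).
Top2a: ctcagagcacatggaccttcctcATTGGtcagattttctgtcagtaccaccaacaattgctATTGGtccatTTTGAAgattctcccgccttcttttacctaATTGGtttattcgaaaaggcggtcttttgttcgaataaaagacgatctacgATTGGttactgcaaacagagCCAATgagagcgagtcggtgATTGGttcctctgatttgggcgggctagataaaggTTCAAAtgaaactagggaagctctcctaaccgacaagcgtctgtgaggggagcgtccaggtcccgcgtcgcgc
Hmmr: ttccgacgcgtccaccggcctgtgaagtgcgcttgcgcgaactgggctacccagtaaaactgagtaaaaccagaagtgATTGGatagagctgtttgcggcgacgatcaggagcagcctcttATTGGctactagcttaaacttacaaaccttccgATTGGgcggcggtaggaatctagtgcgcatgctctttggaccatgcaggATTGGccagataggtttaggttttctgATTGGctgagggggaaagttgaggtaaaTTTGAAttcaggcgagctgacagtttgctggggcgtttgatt
Aspm: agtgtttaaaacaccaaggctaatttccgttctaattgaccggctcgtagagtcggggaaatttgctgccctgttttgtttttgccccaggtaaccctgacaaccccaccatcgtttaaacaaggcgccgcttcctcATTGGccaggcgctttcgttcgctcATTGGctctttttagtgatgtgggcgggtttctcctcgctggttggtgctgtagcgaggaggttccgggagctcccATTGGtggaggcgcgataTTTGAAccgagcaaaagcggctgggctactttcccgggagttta

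In Top2a a CHR lies 23 bases before the start, with 6 CCAAT boxes from 58 to 227 bases before it. Hmmr and Aspm carry it 9 and 7 bases after the start. Hmmr fell by 1.34 ± 0.34 and Aspm by 0.80 ± 0.20 in untreated cells, and neither held (adjusted p up to 0.38 and 0.31 with 1 untreated array left out).

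Surface and cytoskeletal families changed member by member. Of 33 tetraspanin and Ms4a genes 8 rose, 6 of which held, and 3 fell, 2 of which held (24.2% higher and 9.09% lower). Cd81 rose from 445 and 357 to 1604 and 1498 (1.96 ± 0.20), while Tspan13 fell from 1665 and 1708 to 371 and 519 (-1.94 ± 0.22). Of 38 semaphorin, plexin and ephrin genes 5 rose and 1 fell (13.2% and 2.63%). Sema4a, a semaphorin that binds T cells, read 47.3 and 51.5 against 614 and 651 (3.68 ± 0.27), and Plxna1 and the coreceptor Nrp1 rose by 2.64 ± 0.28 and 1.42 ± 0.22. Of 40 other adhesion genes 5 rose and 3 fell (12.5% and 7.5%). Cd226, an activating receptor for nectins, read 18.4 and 14.8 against 341 and 273 (4.21 ± 0.33), Vcam1 rose by 2.15 ± 0.28, and Pecam1 fell from 155 and 137 to 33.7 and 34.2 (-2.10 ± 0.18). The cadherin Cdh17 fell by 1.84 ± 0.18. Of 26 integrins 1 rose and 2 fell (3.85% and 7.69%, against 2.95% and 2.16% of all genes), and none held. Itgam, encoding CD11b, read 245 and 246 against 409 and 383 (0.69 ± 0.21, adjusted p = 0.105). It passed with both outlying SRBC arrays dropped (0.0204), with array weights (0.024) and with the untreated arrays alone (0.0186).

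Broad families served as a comparison. Of 364 solute carriers 17 rose and 13 fell, 4.67% higher against 2.95% of all genes. Slc12a2 led the falls, followed by the choline transporter-like Slc44a2, from 737 and 750 to 122 and 154 (-2.44 ± 0.28). Of 347 zinc finger genes named Zfp 5 rose and 4 fell, 1.44% higher, and of 59 ribosomal protein genes 1 rose, Rps27l. This gene (1.36 ± 0.26) missed the threshold without WT untreated array 1 (adjusted p = 0.134) or either Notch2-11cKO untreated array (0.0629 and 0.0918). Immediate-early and heat shock genes, which digestion of tissue can induce, gave 1 rise and 1 fall among 45, with list means per array of 9.38 and 9.27 in WT and 9.16 and 9.30 in Notch2-11cKO on the log2 scale.

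The 6 arrays from SRBC-treated mice gave the same contrast on other arrays, sharing only the estimate of spread. Of the 589 genes higher in untreated knockout cells 574 were higher there too and 380 passed, where 3.36% of all genes were called higher. Of the 430 lower genes 412 were lower and 176 passed, where 1.96% of all were called lower (5.32% in either direction). All 40 of the largest changes kept their direction, and 38 passed. Fn1 differed by 4.96 after SRBC, Cxcl13 by 4.03, Dnase1l3 by -4.81 and Clec4a4 by -2.91. Rab30 (-1.06, adjusted p = 0.221) and Ptger3 (-0.66, adjusted p = 0.187) were the 2 that did not pass. Of the G2 and M list 10 of 54 fell after SRBC, with a median of -0.51, and of the C-type lectins 19 rose and 2 fell.

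Where the contrasts differed, the test of the difference found 4 genes past the threshold (0.0201% of all). Its unadjusted p was under 0.05 for 1289 of the 19938 genes. With no difference in any gene, a share of about 0.05 of all genes would fall there. Hes1 was lower in untreated knockout cells and differed by -0.09 after SRBC, where WT read 45.2, 39.2 and 35.9 and Notch2-11cKO 29.2, 50.8 and 35.8 (difference of differences 2.51 ± 0.33, adjusted p = 0.0486). Cd63 rose 5.71-fold without treatment and differed by 0.48 ± 0.13 after SRBC, where WT read 2201, 2173 and 2397 (adjusted p = 0.00526). Hes1 missed the threshold without either WT untreated array (adjusted p = 0.441 and 0.0617), either Notch2-11cKO untreated array (0.242 and 0.335), WT SRBC array 2 or 3 (0.115 and 0.121) or Notch2-11cKO SRBC array 2 or 3 (0.0618 and 0.0538). Cd63 missed it without WT untreated array 1 (0.103) or Notch2-11cKO untreated array 1 (0.0841). The count of 4 fell to 0 without WT untreated array 1 and to 1 without Notch2-11cKO untreated array 1, and rose to 44 without WT SRBC array 1 and 604 when WT SRBC array 1 and Notch2-11cKO SRBC array 3 were both dropped.

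**Figure D5:**
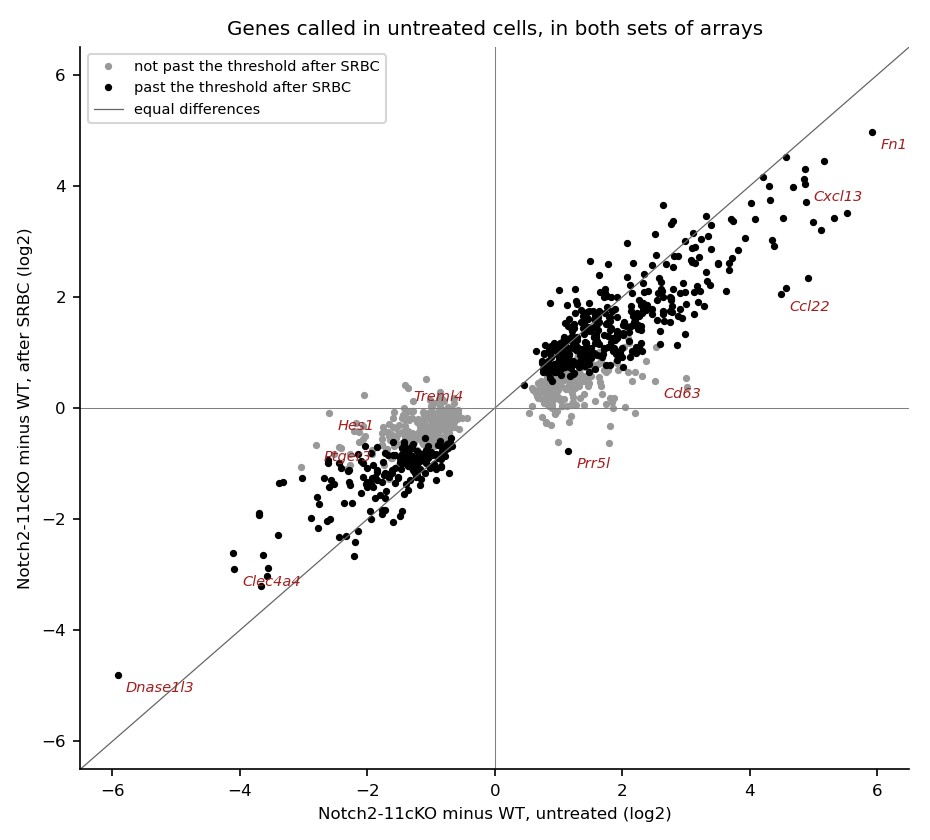
Log2 difference between genotypes after SRBC (y axis) against that in untreated cells (x axis) for the 1019 genes past the threshold without treatment; black points also pass after SRBC. Fn1 and Dnase1l3 lie far out in both, while Hes1 and Cd63 lie near 0 on the y axis, at -0.09 and 0.48.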

How the data were processed

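Affymetrix Mouse Gene 1.0 ST arrays were labelled with the Ambion WT kit. The authors deposited an intensity per probe set, linear and already normalized; how they did so was not given in the sources used here. Values were log2 transformed. Of 28853 probe sets 21789 listed 1 gene symbol, 1621 several and 5443 none. The brightest probe set on average over the 10 arrays stood for each of 19938 genes, with no filter. One linear model in limma 3.58.1 (R 4.3.3) held 1 mean per group (4 groups) and, with a mean-variance trend in eBayes, gave two-sided tests, adjusted by Benjamini-Hochberg over all genes (threshold 0.05). Its steps were tested on simulated data. All adjusted p-values in the text are limma's. The genes and lists were chosen with earlier results of these data known, so they give no independent support. The result of 1 list is not reported here. Named genes were the 20 largest changes in each direction with groups that did not overlap (clone and predicted genes, small RNAs, olfactory and vomeronasal receptors, histones, antigen receptor segments, Y-linked genes and Xist left out), up to 5 members per list and direction with the smallest p, and 27 genes whatever their p. The alternatives were other probe set rules, scalings, variance models, array weights, subsets of arrays and leaving out arrays. Leaving out both SRBC arrays that stood apart was chosen after seeing the data. Motifs were searched in RefSeq promoters (GRCm38.p6).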

Additional observations from a re-analysis of the deposited data

Results flagged for a closer look

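The difference between genotypes was not the same in untreated and SRBC-treated mice for a few genes. By limma's test of the difference of differences (after SRBC minus untreated), 4 genes passed the adjusted threshold. Car2, a carbonic anhydrase, had a difference of -2.2569 (adjusted p = 0.00526): it read 39.0 and 39.8 in untreated WT and 23.7 and 28.7 in untreated Notch2-11cKO, and 167, 163 and 188 against 22.9, 23.1 and 25.8 after SRBC. Car2 missed the threshold without WT untreated array 1 (0.103). Cd63 had -2.0314 and Hes1 2.5116, with the levels and left-out arrays given above. Rnase2a, a ribonuclease, had 1.5314 (adjusted p = 0.0104) at dim levels, between 4.91 and 5.94 on the untreated arrays and WT SRBC arrays up to 6.28, against 19.2, 17.3 and 18.1 in Notch2-11cKO after SRBC. Rnase2a missed the threshold without WT untreated array 1 (0.107) or either Notch2-11cKO untreated array (0.0841 and 0.108).

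A further pattern was searched for only in the named genes and those picked after their values were seen, where called in untreated cells. In 2 of these every Notch2-11cKO array lay on one side of WT without treatment and on the other after SRBC. The test of the difference did not pass for either. Other genes were not searched for it. Prr5l, a regulator of the kinase complex mTORC2, was higher in untreated knockout cells (1.15) and lower after SRBC (-0.77), a difference of -1.9267 (adjusted p = 0.0617). The untreated call of Prr5l was lost without WT untreated array 1 (adjusted p = 0.0561), WT untreated array 2 (0.071) or Notch2-11cKO untreated array 2 (0.0786). Treml4, a receptor of dendritic cells and monocytes, went the other way (-1.40 and 0.42), a difference of 1.8234 (adjusted p = 0.280). The untreated call of Treml4 was lost without WT untreated array 1 (adjusted p = 0.265), WT untreated array 2 (0.0515) or Notch2-11cKO untreated array 2 (0.261).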

How the results depend on the processing

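The count of 1019 genes in the untreated comparison became 1822 with array weights, 1966 with only the 4 untreated arrays in the fit and 1996 without the 2 SRBC arrays that stood apart; leaving out 1 array gave between 418 and 1390. After SRBC 1061 genes became 1615 with array weights, 578 with a change of at least 2-fold, 627 with only those 6 arrays and 2364 without the 2 arrays; leaving out 1 gave between 649 and 1256. The difference of differences, 4 genes, became 2 with genes above the median level, 7 without the variance trend, 63 with array weights and 604 without the 2 arrays; leaving out 1 gave between 0 and 44. The cause was not tested. With the replicate number as a block the 3 counts were 1175, 1319 and 6. Same-numbered arrays of different groups correlated between -0.218 and 0.479 in their deviations from group means, and differently numbered ones between -0.507 and 0.409. In a group of 2 arrays the deviations mirror each other, so these values cannot decide whether the numbers pair the arrays. Of the 283 named genes none changed direction under any alternative while called; leaving out 1 untreated array lost between 69 and 98 calls, and quantile normalization lost 7 and gained 1. Signal over background was not given, so no gene was called absent.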

Other observations

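Of the 1019 genes that differed between untreated genotypes, 642 were in none of the lists. Among these, chosen after their values were seen, Ahnak and Myof, large proteins of membrane repair, were higher in Notch2-11cKO by 3.39 and 3.35 on the log2 scale. Ahnak read 49.4 and 39.9 in WT and 439 and 495 in Notch2-11cKO. Mpeg1, a pore-forming protein of phagocytes, read 136 and 154 against 1311 and 1007, and Selenop, a selenium carrier, 57.5 and 79.4 against 638 and 403. Idh1, the cytosolic isocitrate dehydrogenase, read 17.8 and 23.9 against 226 and 189. Aif1, an actin-binding protein of monocytes and microglia, rose by 1.91. All 6 were also higher in Notch2-11cKO after SRBC, by between 1.39 for Aif1 and 3.10 for Myof.

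For the lists not described above, the shares over all genes are 2.95% higher and 2.16% lower. Of 25 S100 and annexin genes 4 rose and 3 fell (16% and 12%), and of 26 glycolysis genes 5 rose and 1 fell (19.2% and 3.85%). Of 34 death and survival genes 3 rose (8.82%), of 24 SOCS and STAT genes 1 rose (4.17%), and of 25 MHC class I and CD1 genes 1 rose (4.0%), with none lower in these 3 lists. Of 48 ABC transporters 4 rose and 1 fell (8.33% and 2.08%), and of 70 Rab GTPases 3 rose and 4 fell (4.29% and 5.71%).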
